A study of Mus musculus with 9 samples.

Results

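The circadian clock genes were followed on 9 whole-transcript arrays of N1E-115 cells, an adrenergic mouse neuroblastoma line that extends neurites when serum is withdrawn and laminin is offered. The set lists 10 genes by symbol: Clock, Per1, Per2, Per3, Cry1, Cry2, Nr1d1, Nr1d2, Dbp and Tef. Each was represented by the probe set of 1 gene with the highest mean over the arrays, and 9 of the 10 had such a probe set, out of 22180 genes measured this way. The only probe set annotated to Per2 names a second gene, 9830107B12Rik, so no value is assigned to Per2. Cells given Hmgn5 siRNA were read at 24 h, and cells given control siRNA at 24 h and at 4 h, with 3 arrays in each of these groups. All cells, controls included, received 80 nM of siRNA from a pooled product, were starved overnight in a medium for which the labels list no serum, and were then replated on laminin. The times count differentiation, not time of day, and the labels name no step as meant to synchronise clocks. Whether the starvation or the replating aligned them was not tested, so a level is an average over a population whose phases are unknown. All arrays come from 1 cell line, and whether replicates came from separate cultures is not stated, so each p-value reflects only the variation among these arrays, possibly technical.

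The mammalian clock is a transcriptional loop. CLOCK and its partner BMAL1, encoded by Arntl, bind E-boxes and activate the Per and Cry genes, whose proteins return to the nucleus and repress that activation. The same activators drive Nr1d1 and Nr1d2, which encode the heme-binding repressors REV-ERB alpha and beta that compete with ROR receptors at the Arntl and Clock genes. They also drive Dbp, which with Tef belongs to the PAR bZIP factors that bind D-boxes and carry the rhythm to output genes. Fibroblast and neuronal lines hold such oscillators cell by cell, and the oscillators drift apart unless a serum, glucocorticoid or cAMP signal aligns them.

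The letters of these elements were looked for in the 250 bases before each RefSeq transcription start (GRCm38.p6), which the table gave for 9 members and 13 starts. The E-box CACGTG lay before 4 of the 13 starts, those of Cry1, Per1 and both starts of Tef, against 6.02% of all 32851 starts in the table. The related E'-box CACGTT, read on both strands like every motif here, lay before 3 starts, of Cry1, Cry2 and Nr1d1, against 3.85%. The D-box TTATGTAA occurred before 1 member start, that of Per3, and did so at 2 positions, against 0.819% of all starts. The ROR element core AGGTCA lay before 3 starts, of Clock, Per1 and Nr1d2, against 14% of all. Neither the D-box form TTACGTAA (0.113% of all starts) nor the cAMP response element TGACGTCA (1.55%) was found before a member start. None of the 6 motifs lay in the window before Dbp. No motif searched overlaps another in these windows. A match describes letters and not binding, and a window without a match says nothing of elements elsewhere in the gene. Whether a motif bears on a change was not tested. The windows of Cry1 and Tef are shown because they hold motifs and these genes passed the test over time, with limits given below. That of Dbp, which passed too, holds none and is not shown. That of Per3 is shown because it holds the D-box letters, and that of Nr1d1 because its level varied most among the replicates at 24 h. Each runs 5′ to 3′ on the gene's strand and ends at the base before the start, with motif letters in capitals (AACGTG is the E'-box read on the opposite strand). Those of Cry1 (chr10:85185055-85185304, minus strand) and Tef (chr15:81802423-81802672 and chr15:81811164-81811413, plus strand) come first, then those of Per3 (chr4:151044666-151044915, minus strand) and Nr1d1 (chr11:98775378-98775627, minus strand).
Cry1: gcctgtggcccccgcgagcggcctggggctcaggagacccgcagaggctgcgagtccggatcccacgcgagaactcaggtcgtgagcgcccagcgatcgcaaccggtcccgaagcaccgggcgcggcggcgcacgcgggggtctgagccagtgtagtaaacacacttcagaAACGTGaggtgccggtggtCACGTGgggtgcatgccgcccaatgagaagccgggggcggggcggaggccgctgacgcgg
Tef, start 1: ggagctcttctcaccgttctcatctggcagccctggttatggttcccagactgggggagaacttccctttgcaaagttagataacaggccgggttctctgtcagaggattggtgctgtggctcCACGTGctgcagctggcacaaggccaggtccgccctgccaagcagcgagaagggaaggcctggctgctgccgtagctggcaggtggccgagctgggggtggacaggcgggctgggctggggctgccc
Tef, start 2: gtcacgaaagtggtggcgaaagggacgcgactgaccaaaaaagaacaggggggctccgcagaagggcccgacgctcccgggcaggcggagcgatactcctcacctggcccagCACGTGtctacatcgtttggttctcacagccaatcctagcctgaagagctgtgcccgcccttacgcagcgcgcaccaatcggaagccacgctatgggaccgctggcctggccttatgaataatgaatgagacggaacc
Per3: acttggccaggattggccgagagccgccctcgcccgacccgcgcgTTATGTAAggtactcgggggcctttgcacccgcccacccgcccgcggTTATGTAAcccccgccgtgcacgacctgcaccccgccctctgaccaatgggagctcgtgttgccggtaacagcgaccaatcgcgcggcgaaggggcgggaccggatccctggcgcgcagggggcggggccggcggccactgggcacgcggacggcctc
Nr1d1: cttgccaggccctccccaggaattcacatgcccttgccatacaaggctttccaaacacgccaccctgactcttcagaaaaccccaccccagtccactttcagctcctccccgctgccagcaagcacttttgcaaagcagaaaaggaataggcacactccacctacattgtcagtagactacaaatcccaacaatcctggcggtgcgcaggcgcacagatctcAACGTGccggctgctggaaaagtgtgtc

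**Figure D1:**
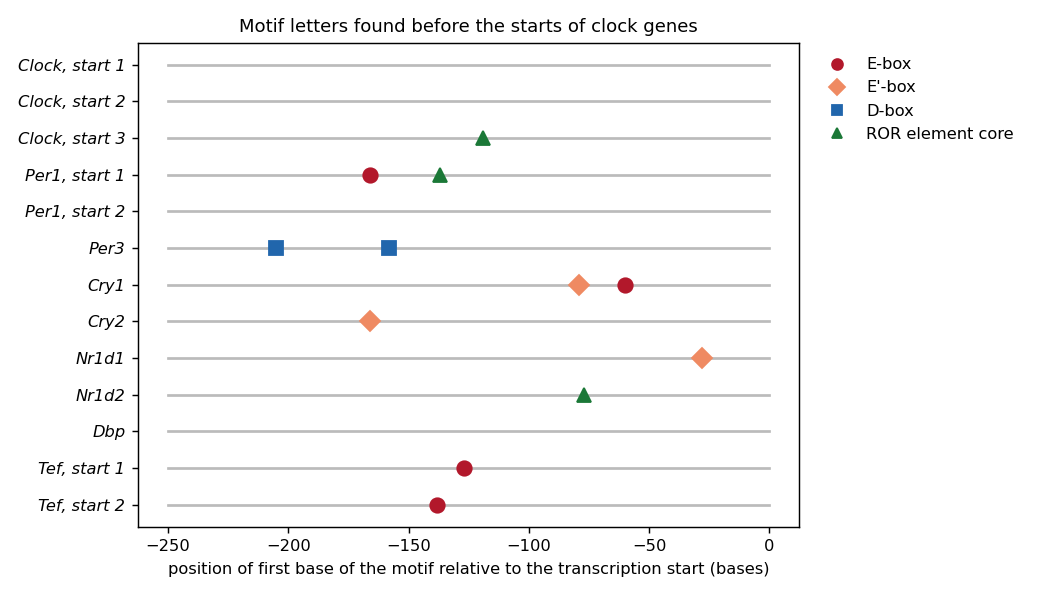
Position of each motif's first base relative to the transcription start (x axis, bases) for the 13 RefSeq starts of 9 clock genes (rows); the grey line is the 250 bases searched and the symbol gives the motif. E-boxes stand 127 and 138 bases before the starts of Tef and 60 bases before that of Cry1, and D-boxes 205 and 158 bases before that of Per3.

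The arrays and the knockdown were checked first. Pearson's r between arrays lay between 0.978 and 0.995 across probe sets, and the least like the rest was control 4 h replicate 2 (array weight 0.247, against 0.853 to 1.61 elsewhere). Hmgn5, a nucleosome-binding protein and the target of the siRNA, read 3.53, 3.45 and 3.50 log2 units with Hmgn5 siRNA at 24 h, 4.77, 4.66 and 4.69 with control siRNA at 24 h, and 4.53, 4.23 and 4.57 with control siRNA at 4 h. It fell by 1.21 on the log2 scale at 24 h (SE 0.09, limma adjusted p = 0.00367). Leaving out control 24 h replicate 1, or replicate 2 or 3 of the knockdown, ended that call (adjusted p = 0.0506 to 0.0558), and so did leaving out both 24 h arrays numbered 3 (adjusted p = 0.200), while the difference stayed between -1.23 and -1.18. The probe set was dim, below the median probe set of every array (5.16 to 5.30) and among the dimmest 33% of genes, where background takes part in the signal, so the size of the fall is less certain than its SE. Of the sympathetic neuroblastoma markers, all 11 measured lay above the median probe set of every array, among them Th, Dbh, Hand2 and Gata3. All 5 measured leukocyte markers lay below that median on every array. The same held for the endothelial markers Tek, Kdr and Emcn and the fibroblast markers Dcn, Lum and Pdgfra, but Pecam1, Cdh5, Mbp, Col1a1, Col1a2 and Col3a1 lay above it on all arrays. The glial markers Aqp4 and S100b were below it throughout.

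Between 4 h and 24 h in control cells the output factors Dbp and Tef rose and the repressor gene Cry1 fell. These 3 of the 9 measured members passed limma's test with Benjamini-Hochberg adjustment over 22180 genes, where 4.34% of all genes did (2.17% higher and 2.17% lower). The changes were modest, 1.32-fold up for Dbp, 1.24-fold up for Tef and 1.31-fold down for Cry1. An unadjusted p under 0.05 was found for 5 of the 9, against 18% of all genes. Of the 9 differences 6 were above 0, as were 54.9% over all genes, with a median of 0.13 against 0.02 over all genes tested. The arrays of the 2 times did not overlap for 5 members, Clock, Per3, Cry1, Dbp and Tef, where this held for 21.3% of all genes. Members and lists were chosen with earlier results of these data known, so these counts and those below describe and do not test them. The 11 sympathetic neuroblastoma markers moved with time too, with a mean level of 10.99 to 11.07 log2 units per control array at 24 h and 10.61 to 10.87 at 4 h and 2 of the 11 called higher, and their part in the clock values was not tested. Mean levels of the glial, fibroblast, leukocyte and endothelial lists overlapped or nearly met between the times, and none of their genes was called. In whole-culture RNA, fewer cells expressing a gene and less RNA per cell cannot be told apart. The plot of the members by array shows these values, in which no member spans more than 0.47 log2 units between its highest and lowest group mean.

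**Figure D2:**
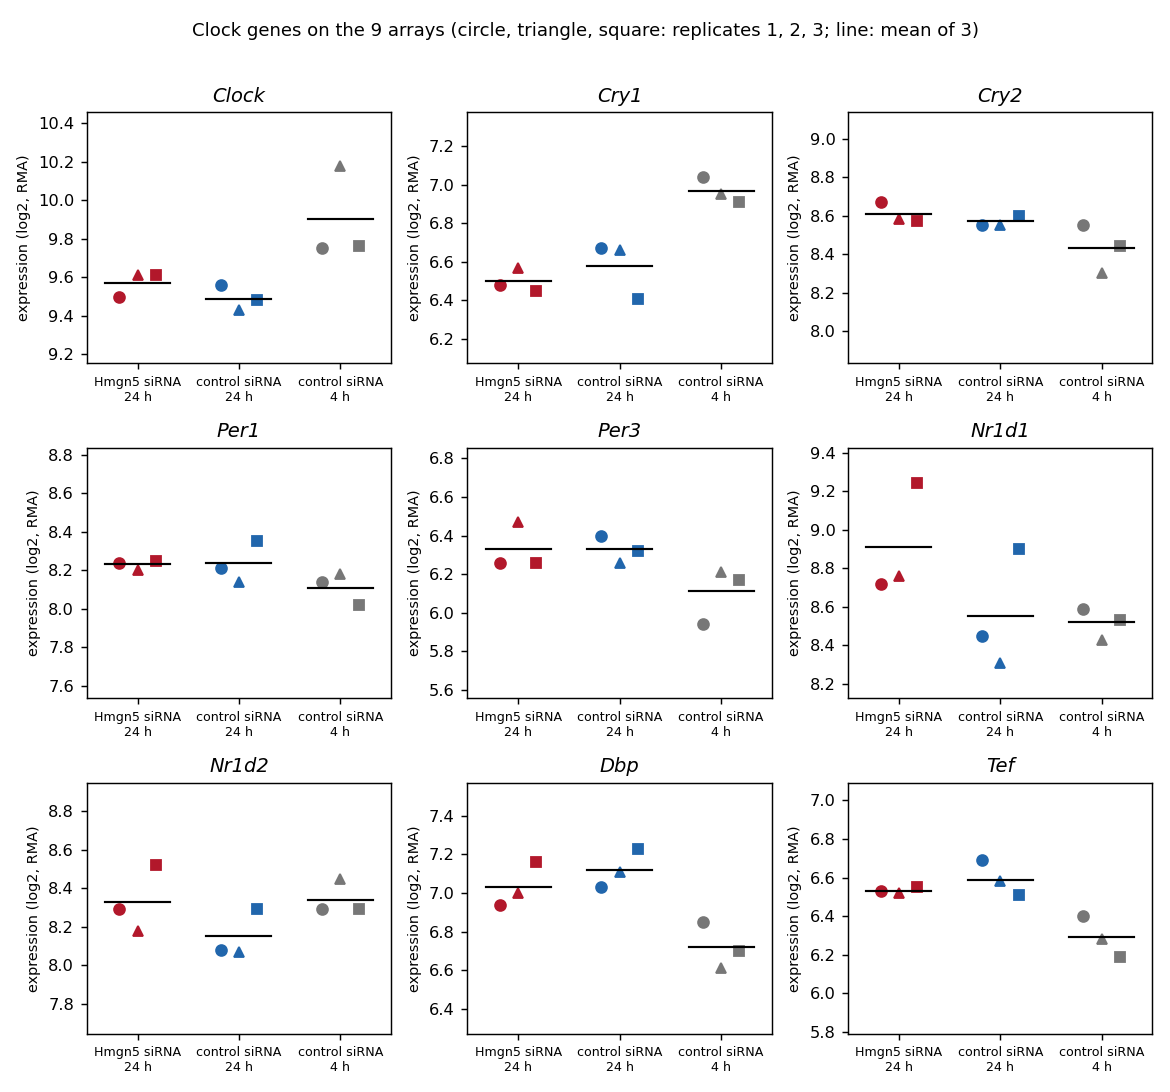
Expression of the 9 measured clock genes (y axis, RMA log2 units; each panel spans the same width of 1.3 units) on every array, with Hmgn5 siRNA at 24 h on the left, control siRNA at 24 h in the middle and control siRNA at 4 h on the right; circles, triangles and squares are replicates 1, 2 and 3 and lines are means of 3. Cry1 lies lower and Dbp and Tef lie higher on all 6 arrays at 24 h than on the 3 at 4 h, and Nr1d1 is highest on replicate 3 of both 24 h groups.

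Dbp, the PAR bZIP activator whose transcript is among the most strongly cycling in liver and other mouse tissues, read 7.03, 7.11 and 7.23 log2 units in control cells at 24 h, against 6.85, 6.61 and 6.70 at 4 h. The lowest array at 24 h lay above the highest at 4 h. Dbp rose by 0.40 (SE 0.09, 95% interval 0.20 to 0.60, limma adjusted p = 0.0345). The gene overlaps Sphk2 in RefSeq, and probes that could read both were not examined. Its relative Tef, thyrotroph embryonic factor, read 6.69, 6.58 and 6.51 in control cells at 24 h, against 6.40, 6.28 and 6.19 at 4 h, again without overlap. Tef rose by 0.30 (SE 0.07, 95% interval 0.14 to 0.47, adjusted p = 0.0480). A dimmer probe set of Tef did not follow, with a mean of 6.03 ± 0.02 at 24 h and 6.12 ± 0.18 at 4 h (SD, n = 3 each) and a difference of -0.09, and with the mean of both probe sets Tef's difference was 0.11 (adjusted p = 0.394).

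Cry1, the cryptochrome that is the stronger repressor of CLOCK and BMAL1, read 6.67, 6.66 and 6.41 log2 units in control cells at 24 h, against 7.04, 6.95 and 6.91 at 4 h. All 3 arrays at 24 h lay below all 3 at 4 h. Cry1 fell by 0.38 (SE 0.08, 95% interval -0.57 to -0.20, limma adjusted p = 0.0320). Its paralog Cry2 read 8.55, 8.55 and 8.60 at 24 h, against 8.55, 8.30 and 8.44 at 4 h, so the times met at their edges. The Cry2 difference of 0.14 (95% interval -0.02 to 0.30, adjusted p = 0.362) did not pass and was 0.075 without control 4 h replicate 2. A further probe set, shared by Cry2 and D930015M05Rik, averaged 5.75 ± 0.20 at 24 h and 5.71 ± 0.10 at 4 h and belongs to neither gene alone.

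These 3 calls sit close to the threshold and moved with single arrays. Dbp missed it when any 1 of the 24 h controls, replicate 2 or 3 of the 4 h controls, or replicate 1 or 2 of the knockdown was left out (limma adjusted p = 0.0529 to 0.126), while the differences stayed between 0.35 and 0.45. Cry1 missed it when any 1 of the 24 h controls, replicate 1 or 3 of the 4 h controls, or replicate 1 or 2 of the knockdown was left out (adjusted p = 0.0528 to 0.0853), with differences of -0.43 to -0.30. Tef missed it whichever array was left out, except control 4 h replicate 1 (adjusted p = 0.0696 to 0.157, differences of 0.25 to 0.35). Without control 4 h replicate 2, the array that stood apart, only Cry1 of the 9 was called. No member was called when the array left out was a 24 h control, replicate 3 of the 4 h controls, or replicate 1 or 2 of the knockdown. In a fit of only the control arrays none was called, with adjusted p = 0.0995 for Cry1, 0.0844 for Dbp and 0.137 for Tef.

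Clock, the bHLH-PAS activator of the loop, read 9.56, 9.43 and 9.48 log2 units in control cells at 24 h, against 9.75, 10.18 and 9.76 at 4 h. Both times were apart, yet the difference of -0.40 (95% interval -0.65 to -0.15) missed the threshold (limma adjusted p = 0.0802). The high 4 h value belongs to replicate 2, and without that array the difference was -0.26 (adjusted p = 0.0536, within a range of 0.0536 to 0.261 over all alternatives). Among the periods, which form the repressor complex with the cryptochromes, Per3 read 6.40, 6.26 and 6.32 at 24 h, against 5.94, 6.21 and 6.17 at 4 h, apart by a narrow margin. Its difference of 0.22 (95% interval 0.02 to 0.42, adjusted p = 0.241) did not pass and was 0.13 without control 4 h replicate 1. RefSeq places Uts2 within the bounds of Per3. Per1, the period gene that cAMP and glucocorticoid signals induce directly, read 8.21, 8.14 and 8.35 at 24 h, against 8.14, 8.18 and 8.02 at 4 h, with overlapping times and a difference of 0.13 (95% interval -0.04 to 0.29, adjusted p = 0.408). It was 0.067 without control 24 h replicate 3 and 0.080 without control 4 h replicate 3.

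The probe set shared by Per2 and 9830107B12Rik read 7.57, 7.43 and 7.54 log2 units in control cells at 24 h, against 8.04, 8.14 and 8.07 at 4 h. With Hmgn5 siRNA at 24 h it read 7.42, 7.35 and 7.49. The times were apart in control cells, with a difference of -0.57, which is wider than that of any measured member. It entered no test, since which of its genes gave the signal cannot be told.

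The REV-ERB genes gave no call over time. Nr1d1 read 8.45, 8.31 and 8.90 in control cells at 24 h, against 8.59, 8.43 and 8.53 at 4 h. Its 24 h arrays lay on both sides of those at 4 h, and the difference of 0.04 (95% interval -0.34 to 0.42, limma adjusted p = 0.939) changed sign, to -0.14, without control 24 h replicate 3 and to -0.0070 without control 4 h replicate 2. Nr1d2 read 8.08, 8.07 and 8.29 at 24 h, against 8.29, 8.45 and 8.29 at 4 h, so that only the highest 24 h array reached the 4 h level. Its difference was -0.20 (95% interval -0.42 to 0.03, adjusted p = 0.345).

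With Hmgn5 siRNA at 24 h none of the 9 members was called by limma against control siRNA at 24 h, where 0.0135% of all genes were (0.00902% higher and 0.00451% lower). None had an unadjusted p under 0.05 either, against 5.25% of all genes. The median difference was 0.01 over the members and 0.00 over all genes, with 5 members above 0 and 4 below, where 49.2% of all genes were above. In none of the 9 were the groups apart, where 12.3% of all genes were. Over the alternatives run, the count of called members was 0 each time, where between 0 and 5 of all genes were called. With so few calls a count of 0 says little about the members.

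The widest differences at knockdown were those of the REV-ERB genes. Nr1d1 read 8.72, 8.76 and 9.24 log2 units with Hmgn5 siRNA, against 8.45, 8.31 and 8.90 with control siRNA at 24 h. In each group replicate 3 was the highest, and control replicate 3 lay above the lower Hmgn5 siRNA arrays. The difference was 0.35 (SE 0.17, 95% interval -0.03 to 0.73, limma adjusted p = 0.979), and it ran from 0.18 without Hmgn5 siRNA replicate 3 to 0.53 without control 24 h replicate 3. Nr1d2 read 8.29, 8.18 and 8.52 with Hmgn5 siRNA, against 8.08, 8.07 and 8.29 with control siRNA, with replicate 3 again the highest in each group. Its difference of 0.18 (95% interval -0.04 to 0.41, adjusted p = 0.979) did not pass, and was 0.09 without Hmgn5 siRNA replicate 3. At each replicate number both genes read higher with Hmgn5 siRNA. That was not counted over all genes, and the labels do not pair these arrays. With the number as a block neither passed (limma adjusted p = 0.776 for Nr1d1 and 0.900 for Nr1d2). RefSeq lists Thra as overlapping Nr1d1, and probes that could read both were not examined.

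The remaining members differed little at knockdown. Dbp read 6.94, 7.0 and 7.16 with Hmgn5 siRNA, against 7.03, 7.11 and 7.23 with control siRNA at 24 h, a difference of -0.09 (95% interval -0.28 to 0.11). Tef read 6.53, 6.52 and 6.55 against 6.69, 6.58 and 6.51, a difference of -0.06 (-0.23 to 0.10). Cry1 read 6.48, 6.57 and 6.45 against 6.67, 6.66 and 6.41, a difference of -0.08 (-0.27 to 0.10). Groups overlapped for all of them. Clock read 9.50, 9.61 and 9.61 with Hmgn5 siRNA, a difference of 0.08 (-0.17 to 0.33). Cry2 read 8.67, 8.58 and 8.57, a difference of 0.03 (-0.13 to 0.20). Per1 read 8.24, 8.20 and 8.25 and Per3 6.26, 6.47 and 6.26, with differences of -0.0053 (-0.17 to 0.16) and 0.0074 (-0.20 to 0.21). The intervals bound a change at knockdown to within 0.33 log2 units either way for each member except Nr1d1 and Nr1d2, and they do not show that the groups are alike.

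**Figure D3:**
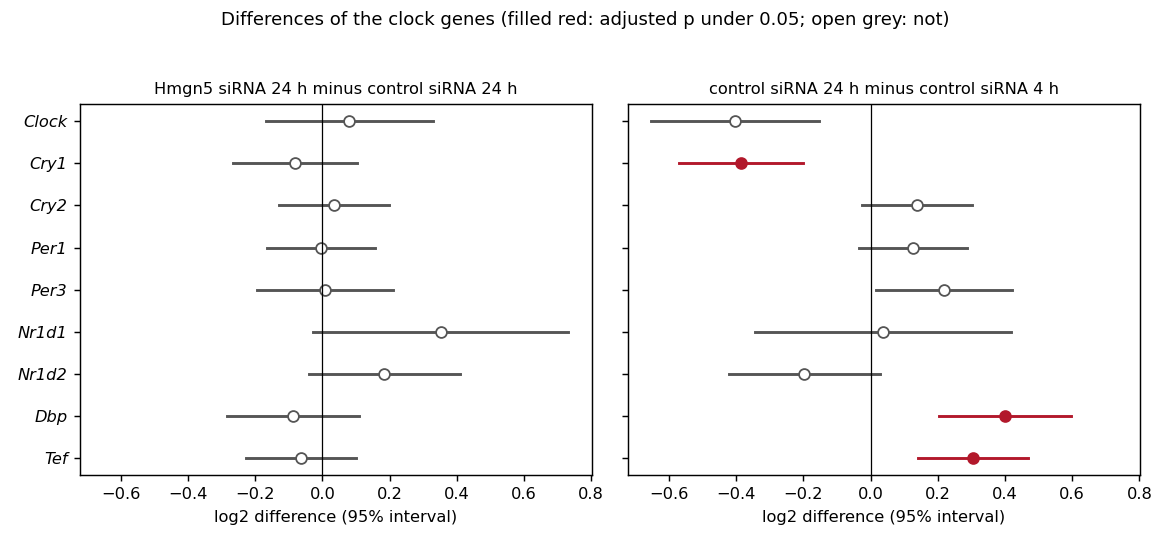
Log2 difference (points) with its 95% interval from the limma fit (lines) for the 9 clock genes, for knockdown minus control, both at 24 h, on the left and for 24 h minus 4 h in control cells on the right; filled red marks an adjusted p under 0.05. Every interval on the left includes 0, and on the right Cry1 lies at -0.38 and Dbp and Tef at 0.40 and 0.30.

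Set against control siRNA at 4 h, where siRNA and time differ together, Hmgn5 siRNA at 24 h gave 1 call among the 9, against 2.57% of all genes (1.52% higher and 1.04% lower). Cry1 averaged 6.50 ± 0.06 log2 units with Hmgn5 siRNA at 24 h and 6.97 ± 0.07 with control siRNA at 4 h (SD, n = 3 each). It fell by 0.47 (SE 0.08, limma adjusted p = 0.0206). Leaving out control 4 h replicate 1 or any 1 knockdown array ended this call (adjusted p = 0.0616 to 0.0864). Dbp (0.31, adjusted p = 0.107), Tef (0.24, 0.131), Nr1d1 (0.39, 0.305) and Clock (-0.32, 0.186) did not pass, and Nr1d2 differed by -0.01. Clock stood at -0.18 and Cry2 at 0.11 (0.17 with all arrays) without control 4 h replicate 2, and Nr1d1 at 0.22 without Hmgn5 siRNA replicate 3. Per3 stood at 0.14 (0.23 with all arrays) without control 4 h replicate 1, and Per1 at 0.074 (0.12 with all arrays) without control 4 h replicate 3. The groups were apart for 8 of the 9, all but Nr1d2, against 18.9% of all genes, and 7 had an unadjusted p under 0.05, against 15.7%. The difference was above 0 for 6 of the 9 and for 51.9% of all genes, with medians of 0.17 and 0.01. This comparison shares its Hmgn5 siRNA arrays with the knockdown comparison and its 4 h arrays with the time comparison, so its values are not independent of theirs.

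Across the 3 groups, Cry1 was lowest with Hmgn5 siRNA at 24 h and highest in the 4 h controls, and the step between the control groups passed the test while the step between the 24 h groups did not. Dbp averaged 7.03 ± 0.11 with Hmgn5 siRNA at 24 h, 7.12 ± 0.10 in control cells at 24 h and 6.72 ± 0.12 at 4 h (SD, n = 3 each), so the control group at 24 h was highest and the 4 h group lowest. Tef had the same order, with 6.53 ± 0.01, 6.59 ± 0.09 and 6.29 ± 0.11. So did Per1, with 8.23 ± 0.03, 8.24 ± 0.11 and 8.11 ± 0.08. For Cry2, Per3 and Nr1d1 the Hmgn5 siRNA mean was highest and the 4 h mean lowest, while Clock and Nr1d2 were highest at 4 h and lowest in control cells at 24 h. Between neighbours in these orders only the control groups of Cry1 differed by the test. Among the 9 members, 4 were highest on replicate 3 in both 24 h groups (Per1, Nr1d1, Nr1d2 and Dbp), against 13.7% of all genes, and Cry1 was lowest there in both, against 15.3%. The labels name nothing that these arrays share beyond the number. Without both arrays numbered 3, none of Cry1, Dbp and Tef was called over time (limma adjusted p = 0.109, 0.124 and 0.116), with differences of -0.30, 0.35 and 0.35.

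The other genes of the clock were followed as lists. Of 11 further loop factors 10 were measured, and between 4 h and 24 h in control cells 1 rose and 1 fell, with a median of 0.06, where 2.17% of all genes rose, 2.17% fell and the median was 0.02. Ciart, which encodes the repressor CHRONO that binds BMAL1, read 7.38, 7.53 and 7.72 log2 units at 24 h, against 8.14, 8.04 and 8.27 at 4 h. The times were far apart, and Ciart fell by 0.60 (SE 0.11, limma adjusted p = 0.0175). Arntl2, which encodes BMAL2, a paralog of BMAL1, read 6.94, 7.08 and 7.19 at 24 h, against 6.62, 6.85 and 6.66 at 4 h, and rose by 0.37 (SE 0.09, adjusted p = 0.0473). Arntl itself averaged 9.19 ± 0.01 at 24 h and 9.19 ± 0.13 at 4 h (SD, n = 3 each), and Npas2, which encodes a CLOCK paralog, 5.32 ± 0.13 and 5.26 ± 0.17. Both were named after their values were seen. The times were apart for 4 of the 10, against 21.3% of all genes. Rorb (0.35, limma adjusted p = 0.129) and Bhlhe40 (0.25, 0.130) were apart but not called. Of the 10 differences 8 were above 0, as were 54.9% over all genes. Ciart missed the threshold with replicate 1 or 2 of the 24 h controls or replicate 3 of the 4 h controls left out (adjusted p = 0.0571 to 0.0720), and Arntl2 whichever array was left out, except control 4 h replicate 2 (0.0624 to 0.157). In a fit of only the control arrays both missed it (0.0526 for Ciart and 0.124 for Arntl2), and Arntl2 also did so under 4 further settings (up to 0.207).

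Enzymes and cofactors that act on clock proteins included 22 measured genes of 26, of which 2 fell over time and none rose (median -0.04), against 2.17% of all genes each way. Sirt1, the NAD-dependent deacetylase that acts on BMAL1 and PER2, read 7.80, 7.82 and 7.63 log2 units at 24 h, against 8.19, 8.16 and 8.21 at 4 h. It fell by 0.43 (SE 0.07, limma adjusted p = 0.00832) and was still called with any 1 array left out. Usp7, a deubiquitinase that stabilises cryptochromes, averaged 10.05 ± 0.08 at 24 h and 10.42 ± 0.10 at 4 h and fell by 0.36 (adjusted p = 0.0215), a call that ended with any 1 of the 24 h controls left out (0.0549 to 0.0817), in the fit of only the control arrays (0.0817) and without both 24 h arrays numbered 3 (0.121). Of 13 measured clock-controlled output genes out of 14, 2 fell and none rose (median -0.03), against the same 2.17% each way. Coq10b, a mitochondrial coenzyme Q-binding protein, read 7.48, 7.55 and 7.72 at 24 h, against 8.11, 8.33 and 8.39 at 4 h. It fell by 0.70 (SE 0.10, adjusted p = 0.00642) and was still called with any 1 array left out. Cdkn1a, the p21 cell cycle inhibitor, fell by 0.34 (adjusted p = 0.0468), lost without any 1 array except control 4 h replicate 2 (0.0714 to 0.157) and under 3 further settings (0.138 to 0.143).

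Genes that respond to the signals known to reset clocks were counted as well. Of 9 glucocorticoid-induced genes 1 rose over time and none fell (median 0.08), against 2.17% of all genes each way. Dusp1, a MAP kinase phosphatase that serum and stress also induce, read 8.91, 8.89 and 9.42 log2 units at 24 h, against 8.19, 8.12 and 8.37 at 4 h. It rose by 0.85 (SE 0.17, limma adjusted p = 0.0252), and missed the threshold with any 1 of the 24 h controls or replicate 1 or 2 of the 4 h controls left out (0.0571 to 0.0737) and in the fit of only the control arrays (0.0566). None of 12 CREB and immediate-early genes passed (median -0.04). An unadjusted p under 0.05 was found for 2 of the 12, which is near the 18% of all genes. In the other lists it was found for 5 of 10 loop factors, 7 of 22 enzymes and cofactors, 4 of 13 outputs and 1 of 9 glucocorticoid-induced genes. The smallest p among the CREB and immediate-early genes were those of Fosb (-0.44, adjusted p = 0.108), Nr4a3 (0.28, 0.114) and Crtc1 (-0.20, 0.282).

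At knockdown no gene of these 5 lists was called by limma, where 0.0135% of all genes were. The list medians lay between -0.01 and 0.07. At an unadjusted p under 0.05 there was 1 gene each among the loop factors (Ciart), the outputs (Coq10b), the glucocorticoid-induced genes (Sgk1) and the immediate-early genes (Nr4a3), and none among the enzymes and cofactors, where 5.25% of all genes reached it. Ciart read 7.71, 7.73 and 8.0 with Hmgn5 siRNA, against 7.38, 7.53 and 7.72 with control siRNA at 24 h, a difference of 0.27 (adjusted p = 0.926). Sgk1, a kinase gene induced by glucocorticoids and serum, differed by 0.51 (adjusted p = 0.846). Coq10b differed by 0.25 and Nr4a3, an orphan receptor gene, by -0.23 (both adjusted p = 0.926). Next by p were Nfil3 (0.14) and Rora (-0.05) among the loop factors, Usp2 (-0.16), Usp7 (0.11) and Csnk2a2 (0.07) among the enzymes, and Lonrf3 (0.18) and Cdkn1a (0.12) among the outputs. In the other lists these were Klf15 (-0.09), Dusp1 (0.13), Sik1 (0.13) and Junb (0.12), and each of these 11 had an adjusted p of at least 0.979. Set against control siRNA at 4 h, Hmgn5 siRNA at 24 h gave falls of 0.37 for Sirt1 (limma adjusted p = 0.0215) and 0.45 for Coq10b (0.0486). Dusp1 rose by 0.98 (0.0195), and no other gene of the 5 lists passed. The calls were 1 of 22 enzymes and cofactors, 1 of 13 outputs and 1 of 9 glucocorticoid-induced genes. Over all genes 2.57% were called in this comparison (1.52% higher and 1.04% lower). The Coq10b call there ended whichever array was left out, except control 4 h replicate 1 (0.0562 to 0.169). That of Sirt1 ended with replicate 1 or 3 of the 4 h controls or any 1 knockdown array left out (0.0567 to 0.0936), and that of Dusp1 with replicate 1 of the 4 h controls or replicate 2 or 3 of the knockdown left out (0.0579 to 0.0642). All 3 also missed the threshold in a fit of only the 2 groups compared (0.0519 for Sirt1, 0.120 for Coq10b and 0.0543 for Dusp1). Sirt1 and Coq10b missed it with median centring (0.0557 and 0.0813) and without both 24 h arrays numbered 3 (0.0652 and 0.109), and Coq10b with cyclic loess (0.0536). Among the loop factors, with no call against control siRNA at 4 h, the smallest p were those of Arntl2 (0.35, limma adjusted p = 0.0741), Rorb (0.42, 0.0927) and Bhlhe40 (0.28, 0.125). Among the CREB and immediate-early genes, also without a call, they were those of Fosb (-0.42, 0.155), Sik1 (0.20, 0.188) and Crtc1 (-0.21, 0.281).

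**Figure D4:**
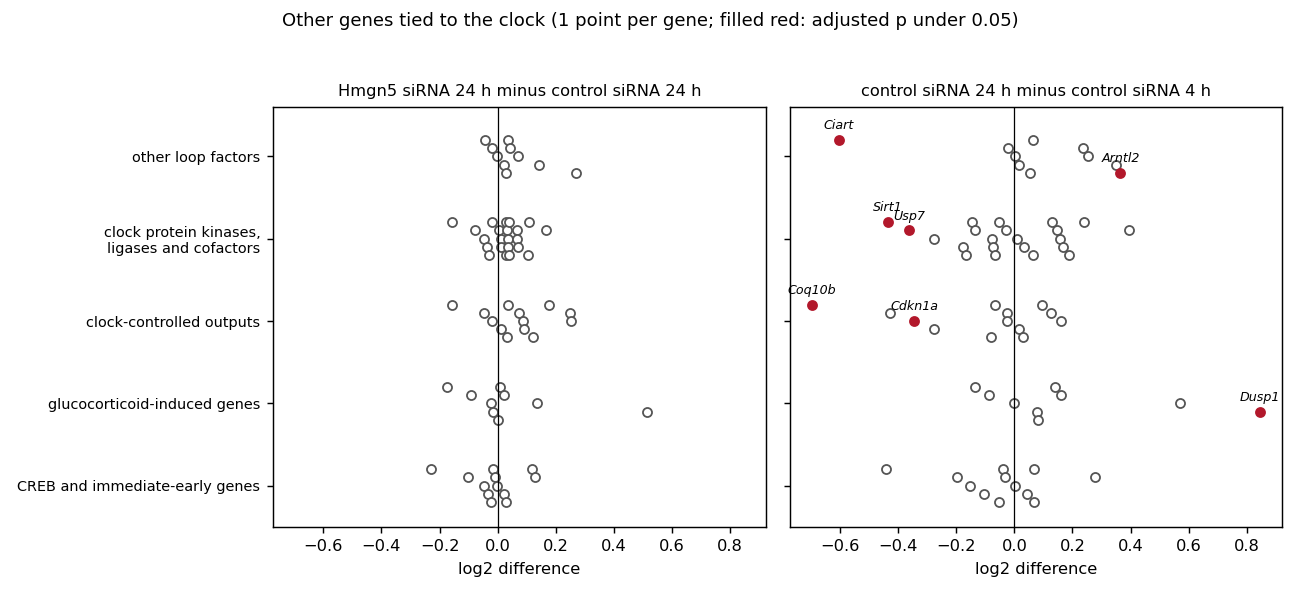
Log2 difference (x axis, 1 point per gene) in 5 lists of genes tied to the clock (rows), for knockdown minus control, both at 24 h, on the left and for 24 h minus 4 h in control cells on the right; filled red points, with names, passed at an adjusted p under 0.05. None passed on the left, while on the right Ciart, Sirt1, Usp7, Coq10b and Cdkn1a lie below 0 and Arntl2 and Dusp1 above it.

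Likeness of pattern was measured for Cry1 and Clock, the members with the widest range of group means (0.47 and 0.40 log2 units). It was taken as the root mean square distance between the 9 values of a gene and of the member, each centred on its own mean, where the median gene lay 0.248 from Cry1 and 0.243 from Clock. Closest to Cry1 were Rab11fip2, a Rab11 effector of recycling endosomes, at 0.054, the chromatin remodeller gene Chd1 at 0.0655, and Hspa5, the endoplasmic reticulum chaperone BiP, at 0.0717. Rab11fip2 averaged 8.36 ± 0.09 with Hmgn5 siRNA at 24 h, 8.44 ± 0.14 in control cells at 24 h and 8.84 ± 0.07 at 4 h, and like Cry1 it was lowest on replicate 3 of both 24 h groups. Closest to Clock were Slc35b1, a nucleotide-sugar transporter family gene, at 0.0477, Ercc6l2, a helicase-like gene, at 0.0538 and the mitochondrial RNA methyltransferase gene Nsun3 at 0.0541. All 3 were, like Clock, highest on control 4 h replicate 2, with 9.71 for Slc35b1, 7.90 for Ercc6l2 and 9.43 for Nsun3. The range of Dbp was also 0.40, so Clock led it only narrowly. Without control 4 h replicate 2 the difference over time was -0.26 for Clock and 0.35 for Dbp.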

How the data were processed

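Per the submitters' processing notes the authors used oligo and RMA, with no versions given in the sources used here, and deposited 1 log2 value per probe set and array. They ran from 2.13 to 13.87, with array medians of 5.16 to 5.30. Quantile normalization, which RMA includes, hides a change shared by most genes. Of 41345 probe sets 23521 had 1 gene symbol in the platform annotation, 1814 several and 16010 none. Those with 1 symbol gave 22180 genes, each by its brightest probe set, and 23328 matched RefSeq (GRCm38.p6) by gene ID. No 2 arrays held the same values. limma 3.58.1 in R 4.3.3 (lmFit, eBayes) fitted the 3 groups together, with 6 residual and 3.55 prior degrees of freedom. Adjusted p-values cover all 22180 genes, called under 0.05. Intervals are moderated 95% intervals. The number of arrays limits the precision. Of these steps only the limma fit was tested on simulated data, with independent noise and shifts wider than the differences of the members. Replicate numbers were not taken as pairs, since no pair of groups had all correlations of same-numbered deviations over 0.1 (range 0.01 to 0.29). Members and lists were chosen with earlier results of these data known. Named genes are the members, Hmgn5, called genes of the lists (else up to 3 with the smallest p) and the 3 genes most like each of the 2 widest-ranging members. Arntl, Npas2 and, over time, Rorb and Bhlhe40 were added after their values were seen.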

Additional observations from a re-analysis of the deposited data

How the results depend on the processing

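At knockdown the count of called clock genes was 0 under all 18 alternatives, 1 of them added after seeing the data. Over time the count of 3 was 0 in a fit of only the 2 groups compared, between 0 and 2 with 1 array left out, and 0 without both 24 h arrays numbered 3, the alternative chosen after seeing the data. For Hmgn5 siRNA at 24 h against control at 4 h the count of 1 was between 0 and 1 with 1 array left out and 0 without both arrays numbered 3. Other alternatives gave 2 or 3 calls over time and 1 call in the last comparison. Median centring ended the Cry1 call (-0.34, adjusted p = 0.0583), the trend and robust prior the Tef call (0.0597). With the replicate number as a block there were 2 calls over time, and Tef missed (adjusted p = 0.0503). Own-numbered arrays correlated best for all 6 arrays of both 24 h groups and of both control groups, and for 4 of 6 in the third pair, a hint from the data and not from the design.

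Sign changes concerned differences near 0 that were not called. At knockdown, Per1 stood at 0.0032 with median centring, at 0.042 without both arrays numbered 3 and between -0.051 and 0.052 with 1 array left out, Per3 between -0.063 and 0.043, Hspa5 between -0.021 and 0.076, and Chd1 at -0.0023 with cyclic loess and between -0.067 and 0.087 with 1 array left out. Over time, Nr1d1 was -0.14 without both arrays numbered 3 and between -0.14 and 0.16 with 1 array left out. Against control at 4 h, Nr1d2 was 0.0043 with array weights, 0.035 with median centring and between -0.11 and 0.062 with 1 array left out. Calls over all genes ranged from 0 to 5 at knockdown (3 as reported), 266 to 1504 over time (963) and 113 to 1046 in the last comparison (569).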
